A study of Mus musculus with 2 samples.

Results

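Pro-B and large pre-B cells are the earliest committed steps of B-lymphocyte development, and 346 of the 17129 cells kept from the healing calvarial defect met the rule for them. A cell was a member when it held at least 4 UMIs (unique molecular identifiers, 1 per captured transcript) of Cd79a and Cd79b summed and at least 3 UMIs of Vpreb1, Igll1 and Dntt summed. Cells with 3% or more of their UMIs in S100a8 and S100a9, 5 or more UMIs of Siglech, or 1% or more of their UMIs in Col1a1, Col1a2 and Col3a1 were left out. The members were thus chosen by measured counts, and the levels of these 11 genes describe the choice and are not findings. Members came from 2 single-cell RNA-seq libraries of C57BL/6 male mice, 2 months old, with a circular 1.8 mm defect in the frontal bone. The GA library came from mice injected intraperitoneally with gambogic amide (GA), a small molecule, in 100 µL of 10% DMSO at the labelled 1.2 mg/kg. The control library came from mice injected with the same volume of 10% DMSO alone. Injections were given daily from 24 h before injury for 1 week, and at day 7 a piece of skull bone was taken that held the defect in its middle, about 3 mm along its edge by the labels. The study's methods describe that piece as round, and they give the substrain as C57BL/6J and another GA dose than the labels. Each library pooled 5 mice, and there was 1 library per condition. No difference between GA and control could therefore be tested, and every interval given is a 95% interval of counting error only.

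In mouse bone marrow, pro-B cells join V, D and J segments of the immunoglobulin heavy chain with the recombinase of Rag1 and Rag2, while Dntt (terminal deoxynucleotidyl transferase) adds bases at the joints. A heavy chain that folds with the surrogate light chain, built from the VpreB proteins and lambda 5 (Igll1), and with the signalling pair Cd79a and Cd79b forms the pre-B cell receptor. Large pre-B cells divide under this receptor and interleukin 7, and afterwards leave the cycle and rearrange the light chain.

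Vpreb1 (chr16:16868403-16870843) and Igll1 (chr16:16860671-16863985) are neighbours on the minus strand, and Vpreb2 (chr16:17980428-17981273) lies on the plus strand, all on GRCm38. Vpreb1 and Igll1 helped choose the cells, so their correlation is a description of the choice. Across the 195 GA members the Spearman correlation of Vpreb1 and Igll1 UMIs per cell was 0.89, and across the 151 control members it was 0.89. The same value for Vpreb1 and Vpreb2 was 0.67 in GA and 0.74 in control. These are descriptions over cells of 1 library each, and depth is shared by the genes of a cell. Vpreb1 and Vpreb2 are near copies, so reads could be split between them or lost in counting, which was not tested. The bases before these genes are shown as a description and do not bear on that. In the stretches below, from RefSeq on GRCm38.p6 and written on the strand of the gene, capitals mark CAGGTG or its reverse complement CACCTG, the E-box that E2A proteins bind.

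Vpreb1 (chr16:16869256-16869361, minus strand): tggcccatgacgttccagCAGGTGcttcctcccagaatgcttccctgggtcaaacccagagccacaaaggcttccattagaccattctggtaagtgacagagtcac

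Vpreb2 (chr16:17980315-17980420, plus strand): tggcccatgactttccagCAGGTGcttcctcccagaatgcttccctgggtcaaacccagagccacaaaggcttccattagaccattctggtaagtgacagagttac

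Igll1 (chr16:16863986-16864105, minus strand): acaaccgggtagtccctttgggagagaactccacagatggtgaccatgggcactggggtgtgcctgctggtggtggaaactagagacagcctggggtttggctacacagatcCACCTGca

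The Vpreb1 and Vpreb2 stretches were identical at 104 of 106 bases (98.1%). They were taken where the 2 windows of 250 bases matched best, so the identity describes that choice. CAGGTG lay at -88 from the RefSeq start of Vpreb1 and at -232 from that of Vpreb2. The Vpreb1 stretch ends at the RefSeq start of the gene, within the annotated extent of Vpreb1 and partly over an exon of one of its non-coding transcripts. The Igll1 stretch lies directly upstream of the annotated gene (16863985 is its first base on the minus strand). Windows of 250 bases before the start were found for 14 of 16 genes looked up, and 7 of these 14 held CAGGTG on either strand, namely Vpreb1, Vpreb2, Igll1, Cd79a, Rag1, Blnk and Erg (in 1 of its windows). Of 32851 such windows in the genome 17.2% held it, a share of windows and not of genes. Ebf1, Erg and Lef1 had more than 1 window each, and Vpreb1 and Vpreb2 are near copies, so the count and this share are not compared. A match describes letters in a window and not a binding site in these cells.

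The label was checked against its 5 markers. Ebf1, the factor that specifies the B lineage, had at least 1 UMI in 195 of 195 GA and 150 of 151 control members, with a median of 89 and 87 UMIs per cell. Pax5, which commits cells to the lineage, was found in 186 GA and 148 control members (95.4% and 98.0%). Neither gene was in the rule. Ebf1 was not particular to B cells here, since 91.2% of GA and 89.9% of control collagen-rich cells held it too, at 1427 and 988 CPM (UMIs per 1000000 UMIs of the cells summed) against 5209 and 5270 CPM in members. Pax5 was found in 2.51% and 1.36% of those cells. It was also found in 85% and 91.3% of the later B cells with little Ighd and in 92% and 91.5% of those with Ighd. Pax5 thus checks the B lineage and not the stage, which the rule set. The other 3 markers were, so that their detection was largely set by the choice and checks nothing. Vpreb1 was found in 192 (98.5%) and 148 (98.0%), and Igll1 in 190 (97.4%) and 150 (99.3%). Dntt was found in 144 of 195 GA members (73.8%) and 87 of 151 control members (57.6%), so a sizeable share of both libraries carried the label without it. In collagen-rich cells, which should lack the gene, 4.47% of 1075 GA and 3.11% of 2060 control cells held a UMI of Vpreb1 at a median depth of 49273 and 50831 UMIs, against 13949 and 14958 in members.

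Few members lay at the limits of the rule. With 3 UMIs of Vpreb1, Igll1 and Dntt there were 7 GA and 6 control cells, and with 2 UMIs, just outside, there were 9 and 5. The median member held 60 such UMIs in GA and 49 in control. With 4 UMIs of Cd79a and Cd79b there were 3 and 1 members, with 3 UMIs 3 and 0 cells, and the median member held 34 in both libraries. Members summed to 4052691 UMIs in GA and 3244656 in control, from libraries of 182949385 and 214993030 UMIs, with 3586 to 85889 UMIs per GA cell and 2628 to 92567 per control cell. The libraries shared 23 cell barcodes, none of them of a member.

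Marker lists of other cell types were checked next. The T and NK list summed to 46.4 CPM in GA and 46.5 CPM in control, most of it the kinase Lck, and Cd3e, Cd3g, Cd4 and Cd8a had 0 UMIs in both libraries. The plasma cell list summed to 832 CPM in GA and 777 CPM in control, most of it Mzb1, a chaperone that B-lineage cells express more widely. Of its defining genes Jchain had 1 UMI in GA and 2 in control, Prdm1 11 and 6, and Sdc1 48 and 42. The plasmacytoid dendritic list summed to 865 and 694 CPM, most of it Tcf4, which is also among the B-lineage transcription factors. Its gene Klk1 had 0 UMIs in both libraries, and Siglech, which the rule limits, had 3 and 0. S100a8, the most abundant neutrophil gene, was at 488 CPM in GA and 93.7 CPM in control. A UMI of it was found in 89.7% of GA and 49.0% of control members. Collagen-rich cells held it too, in 98.0% and 86.6% of cells, at 1008 and 151 CPM. The rule caps S100a8 and S100a9 in members, so the levels in the 2 kinds of cell are not compared.

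Members fell into 4 subsets when split by Dntt (3 or more UMIs, Dntt-high) and by the sum of Mki67 and Top2a (3 or more UMIs, dividing), a split chosen after earlier results were known. Dntt-high non-dividing cells numbered 83 in GA and 50 in control. Dntt-high dividing cells numbered 50 and 32, and Dntt-low dividing cells 51 and 54. The smallest subset, Dntt-low non-dividing, held 11 and 15 cells. Dividing cells were deeper, with a median of 25128 UMIs in GA and 28599.5 in control against 8276 and 7084 in non-dividing cells.

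**Figure D1:**
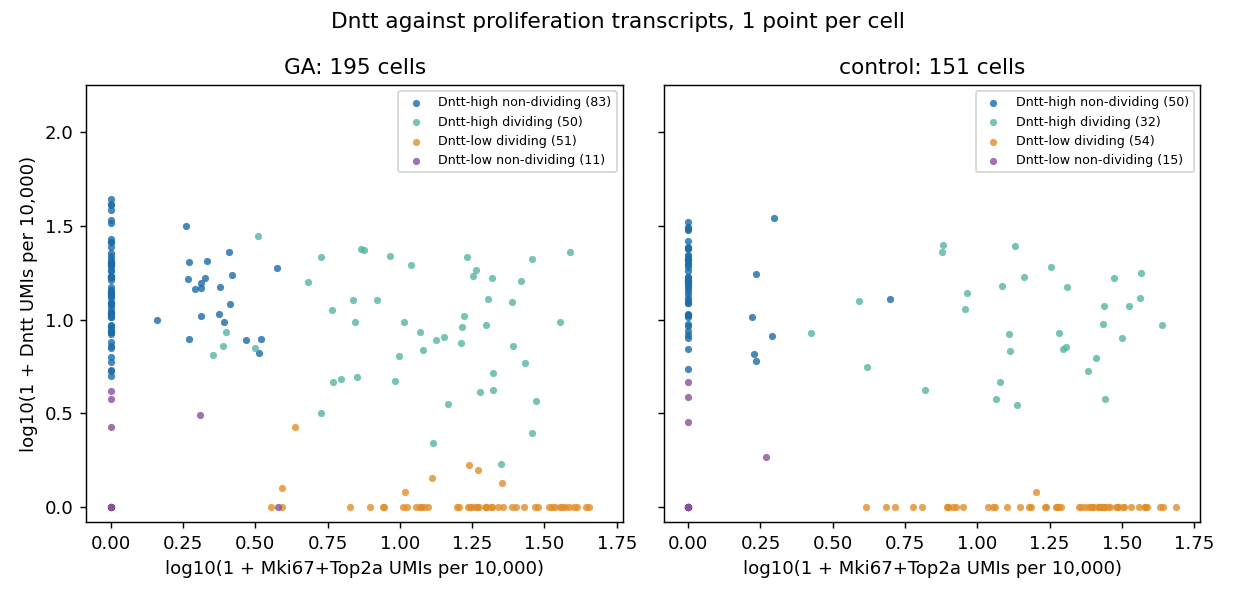
Each point is 1 member, with Mki67 plus Top2a on the x axis and Dntt on the y axis, both as log10 of 1 plus UMIs per 10000, in GA (left) and control (right). Dntt-high cells were found on both sides of the dividing limit, and few cells lay in the corner low for both (11 GA and 15 control cells in the Dntt-low non-dividing subset).

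Rag1, Erg and Lef1, none of them in the rule, were lower in turn in CPM over the 3 large subsets. Rag1, the recombinase subunit that cuts DNA, was at 342 and 389 CPM in GA and control Dntt-high non-dividing cells. It was at 73.5 and 81.8 CPM in Dntt-high dividing cells and at 7.28 and 5.84 CPM in Dntt-low dividing cells, and was back at 283 and 360 CPM in the Dntt-low non-dividing cells. Erg, an ETS factor of progenitors, went from 914 and 983 CPM through 310 and 400 CPM to 43.7 and 4.78 CPM in the same order. Lef1, a DNA-bending factor of pro-B cells, went from 2070 and 2363 CPM to 394 and 450 CPM in Dntt-low dividing cells. Both were higher again in the Dntt-low non-dividing cells, Erg at 463 and 683 CPM and Lef1 at 1157 and 1546 CPM. Per cell the order held for Rag1 but not for the others. Lef1 had a mean of 19.98 UMIs in GA and 19.3 in control Dntt-high non-dividing cells, 31.9 and 27.2 in Dntt-high dividing cells and 12.7 and 15.7 in Dntt-low dividing cells, and Erg had 8.82 and 8.04, 9.46 and 10.8, and 1.41 and 0.167. Pax5 did not run in this order in CPM, at 476 and 582 CPM, 402 and 445 CPM, and 606 and 572 CPM.

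Vpreb2, the VpreB gene outside the rule but a near copy of Vpreb1, was at 563 CPM in GA and 470 CPM in control Dntt-high non-dividing cells, 193 and 175 CPM in Dntt-high dividing cells, and 80.1 and 52.0 CPM in Dntt-low dividing cells. In the Dntt-low non-dividing cells it was at 424 and 156 CPM, from 33 and 13 UMIs. Vpreb1 and Igll1 were in the rule, and Dntt, which made the split, was too, so their levels over the subsets are a description from which nothing is drawn. Vpreb1 was at 3741 CPM in GA and 3779 CPM in control Dntt-high non-dividing cells, 1274 and 1215 CPM in Dntt-high dividing cells, and 477 and 445 CPM in Dntt-low dividing cells. Igll1, the partner chain, was at 2143 and 2116 CPM, 796 and 802 CPM, and 438 and 459 CPM. Per cell the order differed, since dividing cells held more UMIs. The mean of Vpreb1 was 36.1 UMIs in GA and 30.9 in control Dntt-high non-dividing cells, 38.8 and 33.0 in Dntt-high dividing cells, and 15.4 and 15.5 in Dntt-low dividing cells.

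A different set was high where Dntt was low. Ikzf3 (Aiolos), a zinc finger factor, was at 4.99 and 2.45 CPM in Dntt-high non-dividing cells and at 193 and 226 CPM in Dntt-low dividing cells. It reached 373 and 563 CPM in the Dntt-low non-dividing cells. Bach2, a repressor that acts at the pre-B receptor checkpoint, was at 1356 and 1340 CPM, 741 and 904 CPM, 2367 and 2901 CPM, and 5205 and 6113 CPM across the subsets. Irf4, which acts on the light chain loci, was lowest in Dntt-high dividing cells (38 and 38 CPM) and was at 231 and 360 CPM in the Dntt-low non-dividing cells. Igkc, the constant exon of the kappa light chain, was at 134 CPM in GA and 14.7 CPM in control Dntt-high non-dividing cells, 18.4 and 11.5 CPM in Dntt-high dividing cells, 591 and 289 CPM in Dntt-low dividing cells, and 2776 and 2553 CPM in Dntt-low non-dividing cells. Those 11 and 15 cells held under 3 UMIs of Mki67 and Top2a each by their definition and had high Igkc and Rag1, which is not what the name large pre-B says, and they are called here by their rule. Ebf1 and Pax5 were present throughout, with Ebf1 between 3561 and 11579 CPM and Pax5 between 402 and 959 CPM over the 8 values.

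**Figure D2:**
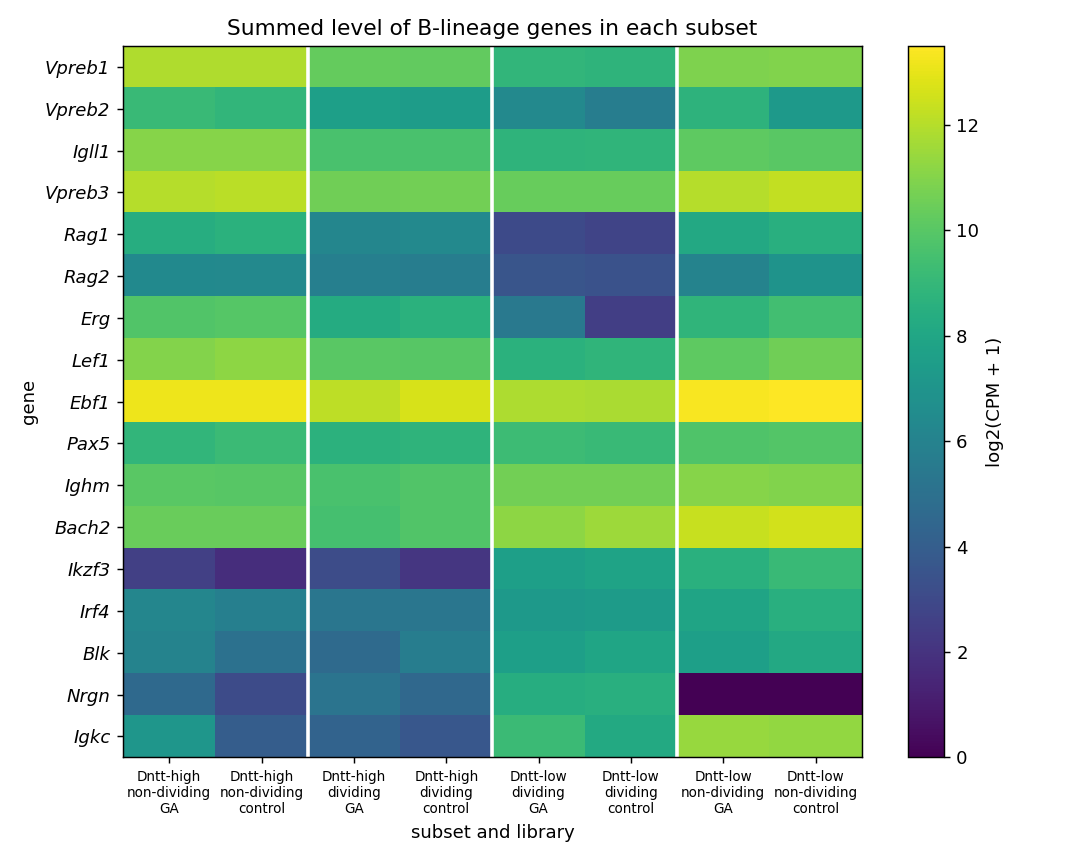
The colour gives log2 of summed CPM plus 1 for 17 B-lineage genes (rows) in each of 4 subsets, GA and control side by side (columns). Rag1 and Erg, and the rule genes Vpreb1 and Igll1, are bright in the Dntt-high non-dividing cells, and Ikzf3 and Igkc are bright where Dntt is low, in both libraries.

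The dividing cells on either side of the Dntt limit, all chosen by Mki67 and Top2a, were compared with each other. Between Dntt-low and Dntt-high dividing cells, 84 of 6245 genes (1.35%) were past a log2 ratio of 1 (at least 50 UMIs, in both libraries) and 144 (2.31%) were past -1. None of the 42 S phase and 51 G2/M genes measured was among them. The G2/M list summed to 16116 CPM in Dntt-low and 14335 CPM in Dntt-high dividing GA cells, and to 16338 and 16341 CPM in control. In pre-BCR signalling 5 of 19 were higher and 1 was lower. Ikzf3 had 318 UMIs in GA Dntt-low against 12 in Dntt-high dividing cells, and 425 against 3 in control. Nrgn, a calmodulin-binding protein, had 559 against 54 UMIs in GA and 678 against 20 in control (log2 3.26 and 3.97). Blk, a Src family kinase of the pre-B receptor, stood at a log2 ratio of 3.00 in GA and 2.22 in control, and Cd22, an inhibitory coreceptor, at 4.69 and 3.87.

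Other genes high in the Dntt-low dividing cells were Fcrla (4.39 and 4.53), the myosin light chain Myl4 (3.20 and 3.26), the HMG-box factor Tox (2.83 and 3.26) and the deacetylase Hdac9 (3.16 and 2.66). Irf4 was at 1.99 and 2.15, and Ighm, the mu heavy chain, at 1.04 and 0.76. At the low end, besides Rag1 (-3.34 and -3.81), stood Rag2 (-2.35 and -2.44), Erg (-2.83 and -6.39), Stat4 (-3.38 and -2.74), the long non-coding RNA Gm30948 (-3.85 and -4.80) and Arpp21 (-2.39 and -3.66). Dntt itself made the split and is no finding here. Il7r, the interleukin 7 receptor chain, was higher in Dntt-low dividing cells by 0.92 and 0.66, within the fold limit.

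Division itself was accompanied by a broad difference in both libraries. Between dividing and non-dividing members, 777 of 6950 genes (11.2%) were past a log2 ratio of 1 in both libraries and 651 (9.37%) were past -1. Of the S phase list 39 of 42 genes, of the G2/M list 48 of 52 and of the MYC target and nucleotide synthesis list 18 of 18 were at 1 or more. Mki67 and Top2a chose the cells, so the G2/M count restates the split. Ccna2, cyclin A2, had 637 UMIs in GA dividing cells and 1 in non-dividing cells, and 627 and 1 in control. Nusap1 (spindle), Cdk1, Pclaf, Kif11 and Spc25 followed it, with at most 14 UMIs in the non-dividing cells of either library.

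At the other end Vpreb2 was at 135 CPM in dividing and 551 CPM in non-dividing GA cells (log2 -2.03), and Vpreb3, which associates with the early receptor, was at 1417 and 4132 CPM (-1.54). Of the 7 surrogate light chain and pre-BCR genes 6 were at -1 or less, a count given as a description because 4 of the 7 (Vpreb1, Igll1, Cd79a and Cd79b) chose the members. The list had a sum of 5725 CPM in dividing and 14846 CPM in non-dividing GA cells and 5512 and 14925 CPM in control (log2 -1.37 and -1.44). The mean UMIs of this list per cell were not lower, at 179.9 in dividing and 138.8 in non-dividing GA cells and 176.4 and 113.0 in control. Cacna1e, a voltage-gated calcium channel subunit, had 59 UMIs in dividing and 282 in non-dividing GA cells and 23 and 204 in control (log2 -4.11 and -5.63), so it was lower in total UMIs as well. The auxiliary channel subunit Cacna2d1 (-3.81 and -5.63), the histone demethylase Kdm5b (-3.84 and -4.27), the metalloprotease Adamts7 (-3.85 and -4.71), lymphotoxin beta (Ltb, -4.12 and -3.52) and the predicted gene Gm32569 (-4.53 and -5.63) were also among the 8 lowest. A UMI of Rag1 or Rag2 was found in 85.1% of non-dividing and 53.5% of dividing GA cells, and in 90.8% and 50% in control, although the dividing cells were deeper.

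The type I interferon list was lower in dividing cells too, at 528 against 1195 CPM in GA and 489 against 1241 CPM in control, with 6 of 8 genes at -1 or less where 9.37% of all genes were. Per cell its mean turned the other way, at 16.6 UMIs in dividing and 11.2 in non-dividing GA cells and 15.7 and 9.40 in control. Of 27 B-lineage transcription factors 7 were at -1 or less and 0 at 1 or more, beside 9.37% and 11.2% of all genes. The V(D)J list summed higher in dividing cells (log2 1.08 and 0.97) while 6 of its 13 genes were at -1 or less. Its sum was carried by Hmgb1 and Hmgb2, chromatin proteins that assist the recombinase and that are also highly expressed in cycling cells generally.

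**Figure D3:**
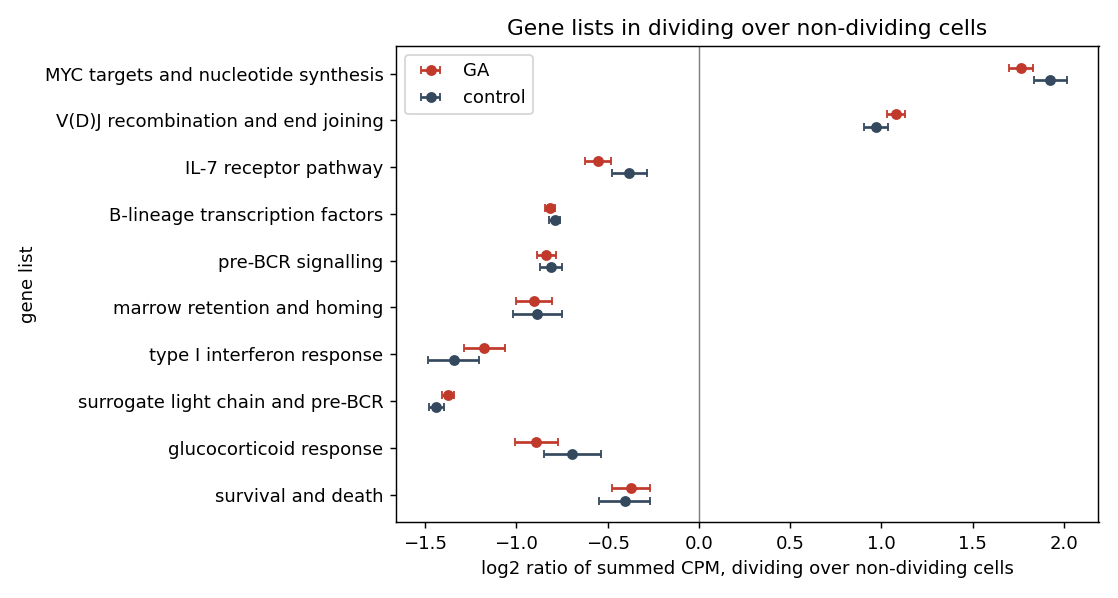
Points give the log2 ratio of summed CPM, dividing over non-dividing members, for 10 gene lists in GA and control, and bars give 95% counting intervals. The MYC target and V(D)J lists lie to the right of 0, the surrogate light chain list, 4 of whose 7 genes are in the rule, at -1.37 and -1.44, and GA and control lie on the same side for each list shown.

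Later B cells of the same gates, with at most 2 UMIs of Vpreb1, Igll1 and Dntt, give the context of the members. There were 340 GA and 345 control cells with little Ighd and 100 and 106 with Ighd, the delta heavy chain of mature B cells. The Ighd-low class held 35 GA and 14 control cells with 10 or more UMIs of Elane, Mpo and Lyz2, and these myeloid-marker cells were left out here after the data were seen, leaving 305 and 331. Against them 435 of 8371 genes (5.20%) were past 1 in both libraries and 413 (4.93%) past -1. With all Ighd-low cells the counts were 166 (1.88%) and 537 (6.08%) of 8834, and monocyte and macrophage genes made up 12 of 12 measured at -1 or less, against 1 of 2 without the myeloid-marker cells.

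Over all Ighd-low cells, the myeloid-marker cells included, the genes highest in members beside the rule genes Dntt, Igll1 and Vpreb1 were Arpp21, Vpreb2, Mmrn1 (multimerin), A630023P12Rik, the myosin light chain Myl10, Gm30948, Ttll11, Drc7 and the Bcl2-family gene Bok. Arpp21, a cAMP-regulated phosphoprotein that binds RNA, had 672 UMIs in GA members against 2 in all Ighd-low cells and 472 against 1 in control. Erg stood at a log2 ratio of 3.58 in GA and 4.89 in control over all Ighd-low cells. Without the myeloid-marker cells it stood at 5.65 and 5.15, above Drc7 in both libraries, and Lef1 at 2.60 and 2.65. Of the MYC target list 15 of 19 genes were then at 1 or more and 19 of 19 were higher in both libraries, where 39.7% of the 8371 genes were. Over all Ighd-low cells 0 of 19 were at 1 or more and 12 were higher in both libraries, where 2776 of 8834 genes were. Its sum there differed by 0.12 in GA and 1.34 in control. Without the myeloid-marker cells the S phase list was higher for 41 of 42 genes, with only 3 of them past 1. The G2/M sums differed by -0.05 and 0.13, and by 0.21 and 0.29 over all Ighd-low cells.

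Lower in members were the genes of the light chain and of antigen presentation, 15 of 16 at -1 or less. Igkc was at 327 CPM in GA and 239 CPM in control members, against 3771 and 3113 CPM. Cd74, the invariant chain, stood at -4.03 and -5.82, and Ly6d at -3.46 and -3.93. Il7r stood at -1.05 and -0.81. Ebf1 (-0.31 and -0.12), Pax5 (-0.58 and -0.35) and Vpreb3 (-0.34 and -0.33) differed by less than the fold limit. Over all Ighd-low cells GA members were higher in Ebf1 (5209 against 3223 CPM), Pax5 (509 against 380 CPM) and Vpreb3 (2006 against 1267 CPM). Control members were higher in Ebf1 (5270 against 4914 CPM) but lower in Pax5 (549 against 607 CPM) and Vpreb3 (1870 against 2010 CPM). Il7r was at 283 against 293 CPM in GA and 300 against 447 CPM in control. Against the Ighd-high cells 650 of 7632 genes (8.52%) were past 1 and 471 (6.17%) past -1, with 32 of 42 S phase genes above and 16 of 16 light chain and mature genes below.

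V gene UMIs were sparse in members and in later B cells. A heavy chain V gene with 3 or more UMIs was found in 4 of 195 GA members (2.05%, 0.562 to 5.17) and 2 of 151 control members (1.32%, 0.161 to 4.70). A kappa V gene was found at that level in 0 of 195 (0 to 1.87%) and in 3 of 151 (1.99%, 0.412 to 5.70). Ighd-low later B cells held a heavy V gene at that level in 2 of 340 GA and 2 of 345 control cells. They held a kappa V gene in 10 and 14. In Ighd-high cells the counts were 2 of 100 and 0 of 106 for heavy, and 3 and 4 for kappa V genes. Such shares count cells with enough V gene UMIs and do not bound the share that carries a rearranged V gene. Igkc at 3 or more UMIs was found in 30.8% of GA and 34.4% of control members, against 81.5% and 84.1% of Ighd-low and 93% and 97.2% of Ighd-high cells. Within members it was in 43.6% and 47.7% of dividing and 17.0% and 16.9% of non-dividing cells. The dividing cells were deeper (medians of 25128 and 28599.5 against 8276 and 7084 UMIs), so shares at a fixed count do not compare levels. In CPM Igkc was highest in the Dntt-low non-dividing cells, at 2776 in GA and 2553 in control. In collagen-rich cells, which should lack the gene, 23.8% of GA and 25.6% of control cells held at least 1 Igkc UMI. No GA cell of these held more than 4, while 1 control cell held 1905 of the 2659 control UMIs.

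The study asked what GA changes in the healing defect, and the share of the members was compared first. Members were 195 of 9036 GA cells (2.16%, 1.87 to 2.48) and 151 of 8093 control cells (1.87%, 1.58 to 2.18), a ratio of 1.16 (0.937 to 1.43) whose interval includes 1. The denominator mattered. Cells with 3% or more of their UMIs in S100a8 and S100a9 were 52.9% of GA and 25.1% of control cells, and among the remaining cells members were 4.58% and 2.49%, a ratio of 1.84 (1.49 to 2.27). Among the 643 GA and 613 control cells through the B-cell gates members were 30.3% and 24.6%, a ratio of 1.23 (1.03 to 1.48). From the ratio of 1.16 to that of 1.84 only the denominators changed, to 4254 and 6058, with the same 195 and 151 members. The part of the neutrophil-marker-rich cells in the number of members captured was not tested.

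The shares of the subsets among members are given as a description where they rest on Dntt, a rule gene. The share of Dntt-high cells was 133 of 195 (68.2%) in GA and 82 of 151 (54.3%) in control, a ratio of 1.26 (1.05 to 1.5). After each cell was thinned to 3000 UMIs the shares were 42.6% and 33.3%, and the interval of the ratio, 1.28 (0.966 to 1.69), then included 1. Dividing cells were 101 of 195 (51.8%) in GA and 86 of 151 (57.0%) in control, a ratio of 0.909 (0.749 to 1.10), and 34.4% and 44.7% after thinning (0.769, 0.591 to 1.00). Dntt-high non-dividing cells were 42.6% (35.5 to 49.8) of GA and 33.1% (25.7 to 41.2) of control members, and Dntt-low dividing cells 26.2% (20.1 to 32.9) and 35.8% (28.1 to 44.0). The intervals of the 2 libraries overlapped in each of the 4 subsets.

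**Figure D4:**
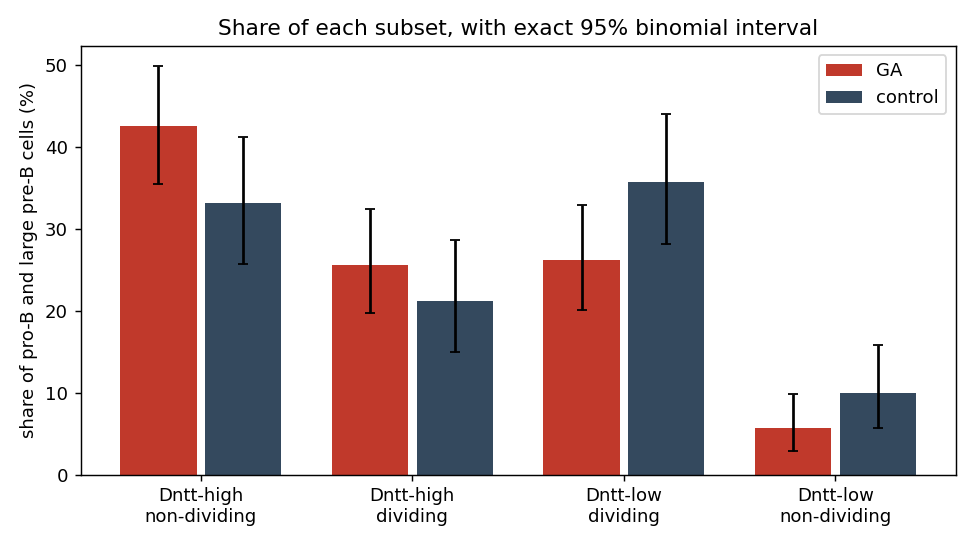
Bars give the share of members in each of 4 subsets (y axis, percent) in GA and control, with exact 95% binomial intervals. Dntt-high non-dividing cells were 42.6% of GA and 33.1% of control members and Dntt-low dividing cells 26.2% and 35.8%, with overlapping intervals.

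GA and control members were then compared gene by gene. Of 9042 genes with at least 50 UMIs, 147 (1.63%) were at a log2 ratio of 1 or more, GA over control, and 23 (0.254%) at -1 or less, around a median of 0.01. Vpreb2, outside the rule, was at 225 CPM in GA and 140 CPM in control members (0.68). Its ratio was 0.26 (0.01 to 0.51) in Dntt-high non-dividing, 0.14 (-0.14 to 0.44) in Dntt-high dividing and 0.62 (0.23 to 1.01) in Dntt-low dividing cells, and 1.44 (0.48 to 2.49) in the small Dntt-low non-dividing subset.

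The rule genes are given as a description, from which nothing is drawn. Vpreb1 was at 1449.7 CPM in GA and 1111 CPM in control members, a log2 ratio of 0.38 (0.32 to 0.44), and at -0.01, 0.07 and 0.10 within Dntt-high non-dividing, Dntt-high dividing and Dntt-low dividing cells. Igll1 was at 923 and 775 CPM (0.25), and within the same subsets at 0.02, -0.01 and -0.07. Of the 7 surrogate light chain and pre-BCR genes, 4 are rule genes. This list was at 7703 and 6940 CPM, with 6 of 7 genes higher and 1 lower where 52.3% of all 10793 genes with 20 or more UMIs were higher and 47.7% lower. Its sum differed by 0.15 over all members, by -0.00, -0.00 and 0.02 within the 3 large subsets and by -0.15 (-0.28 to -0.03) in the Dntt-low non-dividing cells.

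The cycle lists summed lower in GA than in control members. The G2/M list was at 12397 CPM in GA and 14157 CPM in control (-0.19), with 51 of 52 genes lower in GA. Within the 3 large subsets its sum differed by -0.03, -0.19 (-0.22 to -0.16) and -0.02. In all dividing members it was at 15260 CPM in GA and 16339 CPM in control. Dividing cells held 3173734 of 4052691 GA and 2752378 of 3244656 control member UMIs. The part of this make-up in the value over all members was not tested. The S phase list was at 5305 and 5899 CPM (-0.15), with 36 of 42 genes lower, and at -0.04, -0.07 and -0.03 within the 3 large subsets. In the small Dntt-low non-dividing subset the lists were higher in GA, with 120 GA and 85 control UMIs of G2/M (0.60) and 137 and 40 of S phase (1.88). In all non-dividing members the sign turned, to 0.18 for S phase and 0.07 for G2/M. Of the MYC target list 16 of 19 genes were lower, beside 47.7% of all genes, and its most abundant gene, the nucleolar Npm1, was at 1689 and 2020 CPM. None of the genes of these lists was past the fold.

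**Figure D5:**
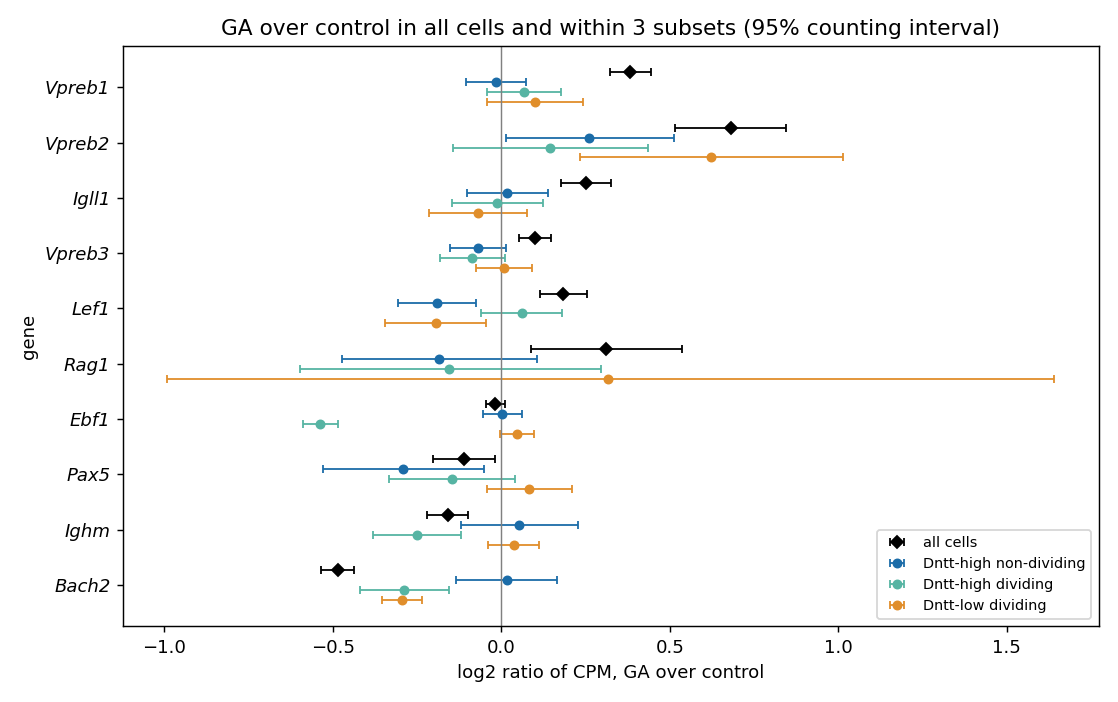
The x axis gives the log2 ratio of CPM, GA over control, for 10 genes in all members (black diamonds) and within 3 subsets (coloured points), with 95% counting intervals. For the rule gene Vpreb1 the diamond lies at 0.38 and the subset points between -0.01 and 0.10, and Ebf1 lies at -0.02 overall and at -0.54 in the Dntt-high dividing cells.

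For several genes the ratio within a subset was not that over all members, in either direction. Ebf1 was at 5209 CPM in GA and 5270 CPM in control members (-0.02). In Dntt-high dividing cells it was at 4513 and 6543 CPM (-0.54, -0.59 to -0.49), and in the other large subsets the ratio was 0.00 and 0.05. Bach2 was at 1610 CPM in GA and 2253 CPM in control (-0.48), with 0.02 in Dntt-high non-dividing cells and -0.29 in both dividing subsets. Ikzf3 was at 89.6 and 147 CPM (-0.71) and differed by -0.23 in the Dntt-low dividing cells, which carried it. Blk was at 104 and 165 CPM (-0.67), with 1.00, -1.09 and -0.32 in the 3 subsets. Erg was at 324 and 251 CPM (0.37), with 72 GA and 9 control UMIs in Dntt-low dividing cells and ratios of -0.11 and -0.37 in the Dntt-high subsets. Some genes of later B cells had large ratios in the Dntt-high subsets, on few cells. Ly6d had 157 GA and 2 control UMIs in Dntt-high non-dividing cells (5.32, against 0.76 over all members), of which 100 were in 1 GA cell. Igkc had 107 and 6 UMIs there (3.19, against 0.45), with 48 in 1 GA cell. It had 59 and 6 without the members called other-lineage cells, which are described below. Cd74 stood at 3.03 and 3.45 in the non-dividing and dividing Dntt-high cells, but had 6 GA and 3 control and 6 and 4 UMIs without the other-lineage cells. Those cells were chosen in part by Cd74 itself, so its fall restates the choice. In the 3 large subsets 1.90%, 1.26% and 0.619% of genes were at 1 or more and 0.745%, 0.606% and 0.317% at -1 or less.

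Among genes with 100 or more UMIs, the lowest ratio was that of Gm43305, a non-coding transcript (chr14:54292443-54297456, minus strand, GRCm38). It was at 38 CPM in GA and 129 CPM in control members (154 and 417 UMIs, -1.76), in 53 and 76 cells. Its ratio was -1.45 (-2.02 to -0.89) in Dntt-high dividing and -1.54 (-1.88 to -1.22) in Dntt-low dividing cells. In Dntt-high non-dividing cells it rested on 5 GA and 7 control UMIs (-1.46), and the interval, -3.45 to 0.42, included 0. Eda, a TNF-family ligand, followed at 7.65 and 21.9 CPM (-1.52), though 20 of its 71 control UMIs were in 1 cell. The other 8 lowest were Tesk2, Hist1h2ag, Igf2bp3, Trim5, Kifc5b, Ppm1l, Hist1h2an and Apoe, from -1.17 to -0.90.

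The 10 highest ratios in GA members, among genes with 100 or more UMIs, came from few cells. Hbb-bs, adult beta globin, had 3330 UMIs in GA and 29 in control, of which 3293 were in 2 GA cells. Hba-a1, Hba-a2 and Hbb-bt were carried with it, since those 2 cells held 6163 of the 6239 haemoglobin UMIs. Prtn3, a granule protease, had 546 and 9 UMIs with 530 in 1 GA cell, and Elane and Ctsg had 370 of 379 and 240 of 250 in 1 cell. Mmp19 (130 of 139), Pdpn (93 of 96) and Wfdc21 (68 of 105) rested on 1 cell each as well. In all, 31 GA and 4 control members held 20 or more UMIs of haemoglobin, granule protease, macrophage or neutrophil genes. For this count Cd74, which later B cells also held, was taken with the macrophage genes. The 31 and 4 cells passed the rule, and whether they are doublets was not settled, since Scrublet scores at the expected rate marked 6 and 1 of them. They are called other-lineage cells here for those genes only, and not as a statement of their lineage. The limit is a fixed count and does not allow for depth. Of the 31 GA cells 26 passed it on neutrophil genes, and the 31 held 1359331 of the 4052691 GA member UMIs.

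Without those cells the genes at the extremes were others for the most part. The summed B-lineage transcription factor list turned from -0.05 to 0.06 (0.04 to 0.08). The monocyte and macrophage list fell to -0.19 (-0.40 to 0.02) and the erythroid list to -0.10 (-0.30 to 0.10), with intervals that include 0. Macrophage and haemoglobin genes chose the cells left out, so the fall of these 2 lists restates the choice. The surrogate light chain list, with its 4 rule genes, was at 0.39, the S phase list at -0.20 and the G2/M list at -0.25, and 93 of 8477 genes (1.10%) were at 1 or more and 52 (0.613%) at -1 or less. The removal also changed the make-up of GA members more than that of control. Dntt-high dividing cells went from 50 to 37 in GA and from 32 to 31 in control, and Dntt-low dividing cells from 51 to 36 and from 54 to 52. The part of this change in the values given here was not tested. Myl10, which was lower in Dntt-low than in Dntt-high dividing cells (-3.05 and -2.52), was at 110 CPM in GA and 37.1 CPM in control (1.57), and Pde8a, a phosphodiesterase, was highest of the genes with 100 or more UMIs, at 34.9 and 7.68 CPM (2.18). At the low end Gm43305 (-1.56) was joined by Tox (-2.69), Hdac9 (-1.38), Cd22 (-1.36) and Nrgn (-1.09), 4 genes that were high in Dntt-low over Dntt-high dividing cells. The removal took more Dntt-low dividing cells from GA than from control, as given above, and its part in these 4 ratios was not tested.

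Neutrophil genes outside the rule had more UMIs in GA members. Camp, an antimicrobial peptide, was at 42.7 CPM in GA and 13.6 CPM in control, in 75 of 195 and 38 of 151 cells. Ngp, a granule protein, was at 33.6 and 9.55 CPM in 82 and 27 cells, Lcn2, an iron carrier, at 22.5 and 4.31 CPM in 62 and 14 cells, and Retnlg at 44.4 and 7.70 CPM in 76 and 17 cells. Single GA cells held 64 of the 173 Camp and 55 of the 180 Retnlg UMIs. The list as a whole was at 1409 CPM in GA and 242 CPM in control (2.54), with 11 of 11 genes higher beside 52.3% of all genes, but S100a8 and S100a9, which the rule caps, hold most of its UMIs. Without the other-lineage cells, which were removed partly by these same genes, it was at 461 and 138 CPM (1.74), a value that is no check of the difference. The GA library as a whole held more neutrophil-marker-rich cells, as given above, and S100a8 was likewise higher in GA collagen-rich cells. The part of free neutrophil RNA in this difference was not tested.

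Signalling and response lists differed less. In the IL-7 receptor pathway 10 of 16 genes were higher and 6 lower in GA, beside 52.3% and 47.7% of all genes, Il7r was at 283 and 300 CPM (-0.08), and Pim1, a kinase induced by cytokines, at 151 and 105 CPM (0.53). The feedback inhibitor Cish had 31 GA and 9 control UMIs (1.46) and Socs3 had 52 and 19 (1.13). Without the other-lineage cells Cish had 16 and 9 (1.04, -0.22 to 2.40, which includes 0) and Socs3 27 and 14 (1.16, 0.18 to 2.21). Of 21 immediate early and heat shock genes 17 were higher in GA, again beside 52.3% of all genes. Fos was at 56.8 and 23.1 CPM (1.30), Junb at 114 and 55.2 CPM (1.05), Nr4a1 at 41.7 and 19.7 CPM (1.08) and Ier3 at 39.7 and 7.70 CPM (2.37), while the heat shock genes Hsph1 and Dnajb1 were at -0.40 and -0.38. Without the other-lineage cells Fos was at 1.35 and Nr4a1 at 1.54, while Junb was at 0.96 and Ier3 at 0.69, no longer past the fold. Egr1, another immediate early factor, was at 18.3 and 17.9 CPM (0.03).

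Among progenitor receptors and surface markers 13 of 16 were higher in GA, beside 52.3% of all genes, while the list sum was at 1620 and 1633 CPM (-0.01). Cd34, a surface protein of progenitors, had the highest ratio on 17 and 5 UMIs (1.44), of which 4 and 2 were outside the other-lineage cells, and Flt3, a cytokine receptor of early progenitors, had 94 and 32 UMIs (1.23). Bst1 was at 82.7 and 53.9 CPM (0.62, and 1.02 without the other-lineage cells) and Enpep, the BP-1 antigen of early B cells, at 51.6 and 33.3 CPM (0.63). Of the marrow retention list Cd44, the hyaluronan receptor, was at 125 and 60.7 CPM (1.04, but 0.54 without the other-lineage cells, when no gene of the list was past the fold), and the chemokine receptor Cxcr4 at 92.5 and 94.3 CPM (-0.03). Bcl2l11, a pro-death BH3 protein, was at 74.0 and 42.2 CPM (0.81), and the p53 target Cdkn1a at 59.0 and 40.1 CPM (0.56). Of the light chain and mature B list 14 of 15 genes were higher in GA (52.3% of all genes were), though single cells carried 60 of 80 Ms4a1 and 193 of 386 Cd74 UMIs. Without the other-lineage cells, which were chosen in part by Cd74, 5 of 9 were higher.

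Of the hedgehog genes, Gli1, Gli2 and Hhip had 0 UMIs in both libraries, where 3 UMIs, the limit that a count of 0 allows, correspond to 0.740 CPM in GA and 0.925 CPM in control. Ptch1, the hedgehog receptor, had 70 GA and 62 control UMIs (17.3 and 19.1 CPM, -0.15), and Sufu, an inhibitor of Gli factors, 136 and 100 (33.6 and 30.8 CPM, 0.12).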

How the data were processed

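Matrices of 2 libraries were used, in which the authors deposited counts (UMIs of each gene in each barcode), made with Cell Ranger (7.0.1 per the file headers) against mm10. The counts were not normalised, and no reads were realigned. Cells with 500 to 140000 UMIs, 200 to 9500 genes and at most 15% mitochondrial UMIs were kept. The 11 rule genes then chose the members. Counts were summed over cells of a library and scaled to CPM, and log2 ratios carry exact conditional binomial intervals (95%), shares exact Clopper-Pearson intervals, and ratios of shares log-normal intervals. With 1 library per condition no test was made. PCR and capture make these intervals cover counting error only. Genes needed 50 UMIs to count as past a log2 ratio of 1, and list members 20 UMIs. The members and the 25 gene lists were chosen with earlier results of these data known. Named genes were the rule genes and markers, the list genes that carry a sum or its extremes, the 10 highest and 10 lowest GA over control among genes of 100 or more UMIs, the 12 highest and lowest over Ighd-low cells, and the 8 highest and lowest in dividing cells; other names in the comparisons of subsets were chosen after their values were seen. Ighd-low and Ighd-high cells were split at 2 UMIs of Ighd, with Jchain under 10 UMIs. Doublets were not removed. Scrublet (scanpy 1.11.5) at its automatic threshold marked 0 GA and 39 control barcodes, so removal of the top scores at 0.8% per 1000 barcodes was an alternative. Alternatives changed depth, thresholds, scaling and cells left out. Mx1 and H2ax were not analysed here, and some items are not reported here. The code (Python 3.11.15, NumPy 2.4.6, SciPy 1.17.1, pandas 2.3.3, matplotlib 3.10.9) was tested on simulated data.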

Additional observations from a re-analysis of the deposited data

Results flagged for a closer look

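Of 46 genes chosen for naming, 18 had GA over control log2 ratios of opposite sign in members and in Ighd-low later B cells (without cells of 10 or more UMIs of Elane, Mpo and Lyz2). The 46 include the 10 highest and 10 lowest ratios in members, and no share over all genes is given, so the count describes the choice only. For 7 of the 18 the counting intervals of both ratios lay clear of 0, and these 7 are given here. With 1 library per condition the difference between the classes was not tested. The 4 globin genes were higher in GA members and lower in GA Ighd-low cells. Hba-a1 was at 6.59 in members and -4.26 in Ighd-low cells, Hba-a2 at 6.54 and -2.70, Hbb-bs at 6.52 and -3.60, and Hbb-bt at 6.1 and -4.86. In members 2 GA cells held 6163 of 6239 globin UMIs. In the control Ighd-low cells single cells held 219 of 238 Hba-a1, 36 of 47 Hba-a2, 329 of 389 Hbb-bs and 373 of 391 Hbb-bt UMIs. Trim5 was at -1.01 in members and 0.65 in Ighd-low cells. Pax5 was at -0.11 and 0.12, and Bach2 at -0.48 and 0.17. Bach2 was the transcription factor with the larger gap of these, and within the members its ratio was 0.02 in Dntt-high non-dividing and -0.29 in both dividing subsets. The 18 and the 7 were counted only without the myeloid-marker cells, which were left out after the data were seen. With them kept, Pax5 was at 380 CPM in GA and 607 CPM in control Ighd-low cells. It was then lower in GA, as in members. Hba-a1 was at 57.1 and 88.5 CPM with them kept, and 1 GA cell held 245 of 267 GA UMIs.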

How the results depend on the processing

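No paired analysis was possible because there is 1 library per condition and the replicate numbers only name the samples in accession order. Of the alternatives, the mitochondrial limit of 10%, the minimum of 2000 UMIs and centring on the median gene moved no result beyond its interval. The member share ratio was 1.84 of cells with little S100a8 and S100a9. The genes at a log2 ratio of 1 or more, GA over control, numbered 79 of 8899 (0.888%) after Scrublet removal and 96 of 8933 (1.07%) with Cd79a plus Cd79b of 8 or more. They numbered 26 of 3670 (0.708%) after thinning, 34 of 5339 (0.637%) at 200 and 348 of 10793 (3.22%) at 20 or more UMIs. In dividing cells there were 95 of 8351 (1.14%), in non-dividing cells 76 of 4568 (1.66%) and without the other-lineage cells 93 of 8477 (1.10%). At -1 or less there were 15 of 3670 (0.409%) after thinning, 2 of 5339 (0.0375%) at 200 and 101 of 10793 (0.936%) at 20 or more UMIs. Without the other-lineage cells there were 52 of 8477 (0.613%). Thinning left fewer genes to count. After it, 244 of 4560 genes (5.35%) were at -1 or less over Ighd-low cells. Over Ighd-high cells 230 of 2726 (8.44%) were at 1 or more and 198 (7.26%) at -1 or less. In dividing over non-dividing cells 180 of 1625 (11.1%) were at 1 or more and 156 (9.6%) at -1 or less. Without myeloid-marker cells 435 of 8371 genes (5.20%) were at 1 or more over Ighd-low cells. With 6 UMIs of a V gene the shares of GA members with a heavy, and control members with a heavy or kappa V gene, were 0.

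Signs turned as follows, on the log2 scale, and beyond the cells left out or the UMIs removed the cause was not tested. After Scrublet removal Pdpn was at -1.46 and the monocyte and macrophage list at -0.29. After thinning Rag1 was at -0.19, Igkc at -0.048, Ly6d at -0.20 and the survival list at -0.0101. In dividing cells Pdpn was at -3.01, the IL-7 list at -0.0214, the glucocorticoid list at -0.0072, the monocyte and macrophage list at -0.0216 and the plasma cell list at -0.0081. In non-dividing cells Hba-a1 and Hbb-bt were at -0.10, Elane at -0.84, Prtn3 at -1.42, Eda at 0.038, Vpreb3 at -0.10, Rag1 at -0.19, Rag2 at -0.093, Igkc at -0.28, Flt3 at -0.45, Lef1 at -0.16, Sox4 at -0.37, Erg at -0.094 and Runx1 at -0.034. There the surrogate light chain list was at -0.0076, S phase at 0.18, G2/M at 0.074, MYC targets at 0.082, interferon at -0.055, erythroid at -0.45 and multipotent progenitor genes at -0.69. Without the other-lineage cells Hba-a1 was at -0.30, Hba-a2 at -0.79, Hbb-bs at -0.0702, Hbb-bt at -0.37, Pdpn at -1.01, B-lineage transcription factors at 0.0601, the monocyte and macrophage list at -0.19 and the erythroid list at -0.10. Haemoglobin and macrophage genes chose the cells left out there, so the turns of such genes and lists restate the choice. The shares of dividing and of Dntt-high members stayed on their side of 1 under every alternative tried. Ratios of genes with few UMIs have wide intervals, and pooling of mice leaves the spread between animals unknown.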
